A study of Mus musculus with 8 samples.

Results

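Eaf2, its paralogue Eaf1, the ELL genes Ell, Ell2 and Ell3, the scaffold genes Aff1 and Aff4, the kinase gene Cdk9, its cyclin gene Ccnt1 and the inhibitor gene Hexim1 were followed in B220+CD3+ spleen cells of autoimmune mice with and without Eaf2. These 10 genes were chosen by name as the EAF and ELL proteins, the AFF scaffolds of the super elongation complex, and P-TEFb with its inhibitor. All 10 had a row among the 17384 genes of the deposited table, and all 10 were among the 12340 genes that passed the filter on low counts. RNA was sequenced from spleen cells sorted for both B220, the B cell form of CD45, and CD3, the signalling subunits of the T cell receptor. The 4 libraries labelled EAF2Faslpr came from Eaf2-/-Faslpr mice, and the 4 labelled Faslpr from Faslpr mice. Both groups therefore carry Faslpr, the lpr mutation of the death receptor gene Fas, under which T cells bearing B220 accumulate. The control is Faslpr with Eaf2 intact, and no group with intact Fas was part of the comparison. The sources used here do not give age, sex, the deleted part of Eaf2 or whether replicates were separate animals. The p-values therefore cover the spread among these libraries alone, and that spread may be technical.

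After initiation, RNA polymerase II pauses a short way into many genes, held by the factors DSIF and NELF. P-TEFb, the pair of the kinase CDK9 and cyclin T1, phosphorylates these factors and the polymerase tail, and elongation resumes. HEXIM1 holds P-TEFb inactive on the 7SK RNA particle, whereas the scaffolds AFF1 and AFF4 gather active P-TEFb with an ELL protein into the super elongation complex. ELL proteins raise the rate at which the polymerase elongates, and EAF1 and EAF2 bind ELL and stimulate it. In the B lineage, ELL2 is known for directing immunoglobulin mRNA processing in antibody-secreting cells, and EAF2 is abundant in germinal centre B cells.

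Start regions are shown for Hexim1, Aff1 and Eaf2, which were called with most of their partners not called. Ell3 was called too, but its window lies wholly within annotated exons and is not printed. The sequences are RefSeq promoter windows on GRCm38.p6, which run from 250 bases before a start to 50 after it, cut to the stretch outside annotated exons. The deposited values were made on GRCm39, so these positions are not those of the deposited table. Capitals mark TATA box letters (TATAAAA and TATAAAT, together with TATATAA and TATATAT) and CCAAT letters, searched on both strands. The stretches are given 5′ to 3′ on the strand of the gene.
Hexim1, chr11:103116075-103116230, plus strand: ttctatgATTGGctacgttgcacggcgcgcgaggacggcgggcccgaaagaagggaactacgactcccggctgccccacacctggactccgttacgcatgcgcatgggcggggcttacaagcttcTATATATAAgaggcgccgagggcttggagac
Aff1, first start, chr5:103753912-103754161, plus strand: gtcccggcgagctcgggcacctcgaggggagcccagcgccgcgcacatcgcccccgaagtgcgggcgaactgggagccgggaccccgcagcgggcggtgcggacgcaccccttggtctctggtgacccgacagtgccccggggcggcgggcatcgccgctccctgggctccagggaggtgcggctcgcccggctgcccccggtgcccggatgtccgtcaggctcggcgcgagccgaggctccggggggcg
Eaf2, farthest upstream start, chr16:36874827-36874900, minus strand: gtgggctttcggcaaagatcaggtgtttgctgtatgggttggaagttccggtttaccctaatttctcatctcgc
Eaf2, middle start, chr16:36828262-36828384, minus strand: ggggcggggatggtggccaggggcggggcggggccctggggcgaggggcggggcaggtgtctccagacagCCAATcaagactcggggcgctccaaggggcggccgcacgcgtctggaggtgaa
Eaf2, farthest downstream start, chr16:36808706-36808955, minus strand: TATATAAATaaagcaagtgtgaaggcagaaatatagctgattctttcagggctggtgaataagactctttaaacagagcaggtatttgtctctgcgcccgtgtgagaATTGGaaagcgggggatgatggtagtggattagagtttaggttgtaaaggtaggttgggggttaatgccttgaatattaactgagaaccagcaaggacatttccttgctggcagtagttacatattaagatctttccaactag
The Hexim1 window held 3 overlapping TATA matches and 1 CCAAT match, which reads ATTGG on the printed strand. TATA letters were present in 12.5% of all 32851 windows of this length, and CCAAT in 37.4%. The window of the first Aff1 start held neither motif and had a GC content of 77.3%, against 61.0% for Hexim1. It held 3 matches to the GC box GGGCGG, a motif present in 35.7% of all windows, and the Hexim1 window held 1. A further Aff1 start, not printed, had 63.0% GC, 3 GC boxes and neither TATA nor CCAAT letters. The 3 Eaf2 windows differed from each other. GC content was 51.0% around the farthest upstream start, 70.7% around the middle start and 41.0% around the farthest downstream start. The middle window held 5 GC boxes and the others none, and only the farthest downstream window held TATA letters, in 2 matches. The Ell3 window had 59.7% GC, 4 GC boxes, 1 CCAAT match and no TATA letters. None of the windows of the 10 genes held the AP-1 letters TGANTCA, which were present in 7.81% of all windows. These matches are descriptions of letters, not of binding.

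Depth was similar in all libraries, from 15.6 to 18.6 M (megareads) of estimated reads, and 3 reads, the count that a gene at 0 could hide, equalled 0.161 to 0.193 counts per M reads (CPM). Defining T cell genes were abundant in both groups. The summed level of the T cell list was 4562 to 4686 CPM in EAF2Faslpr and 4334 to 4959 CPM in Faslpr, and Lck, its most abundant gene, stood at 1136 ± 83.9 and 1156 ± 98.4 CPM (SD, n = 4 each). Of 12 listed T cell genes 11 were tested, 1 was higher in EAF2Faslpr (Cd2) and none was lower. B cell genes moved with genotype, as all 12 listed were higher in EAF2Faslpr, with a summed level of 583 to 1059 CPM against 132 to 277 CPM. The highest B cell sum was that of EAF2Faslpr 3. Of 10 listed macrophage and neutrophil genes 9 were tested and 2 were higher in EAF2Faslpr (Lyz2 and Cybb), with sums of 76.1 to 221 CPM against 56.7 to 74.8 CPM, the highest again in EAF2Faslpr 3. Their most abundant gene was Cd68, at means of 27.2 and 32.0 CPM, and the neutrophil gene Ly6g was at 0 in 3 libraries. In sorted bulk cells, a change in the number of cells of a type and a change in RNA per cell cannot be told apart. Libraries also differed in how their reads fell on long and short transcripts. The 9927 genes of at least 5 CPM were divided into 5 equal classes by effective length, and each library was set against the other 3 of its group. In Faslpr 4 the median log2 deviation was 0.26 in the shortest class and -0.23 in the longest, and in EAF2Faslpr 3 it was 0.11 and -0.08. In the other 6 libraries the longest class was the higher, by 0.02 to 0.25. Each of these was compared with a set that holds the falling library of its group, so this rise is not a separate trend.

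**Figure D1:**
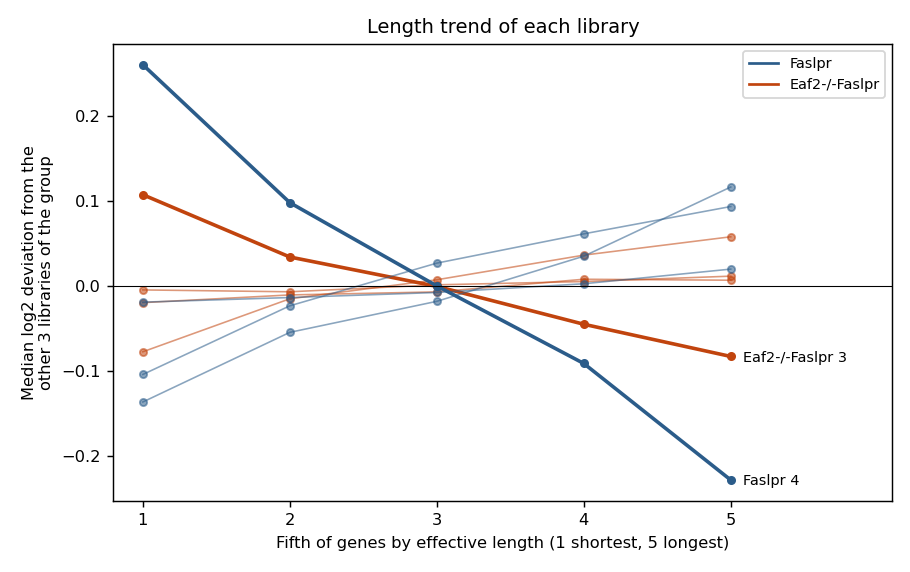
Median log2 deviation of genes from the other 3 libraries of the group (y axis) in 5 classes of effective length from shortest to longest (x axis), with 1 line per library and EAF2Faslpr drawn as Eaf2-/-Faslpr. Faslpr 4 falls from 0.26 to -0.23 and EAF2Faslpr 3 from 0.11 to -0.08. The other 6 libraries end higher in the longest class, each being compared with a set that holds the falling library.

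Of the 10 genes, 4 passed at an adjusted p under 0.05, where 12.1% of all genes tested passed. Ell3 and Hexim1 were higher in EAF2Faslpr, where 7.14% of all genes were called higher, and Eaf2 and Aff1 were lower, where 4.96% were called lower. These 4 were also the genes whose libraries did not overlap between groups, as was found for 17.7% of all genes tested. Eaf2 is the deleted gene, and without it 3 of 9 passed. The median log2 fold change of the 10 genes was -0.03, beside -0.01 over all genes tested.

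**Figure D2:**
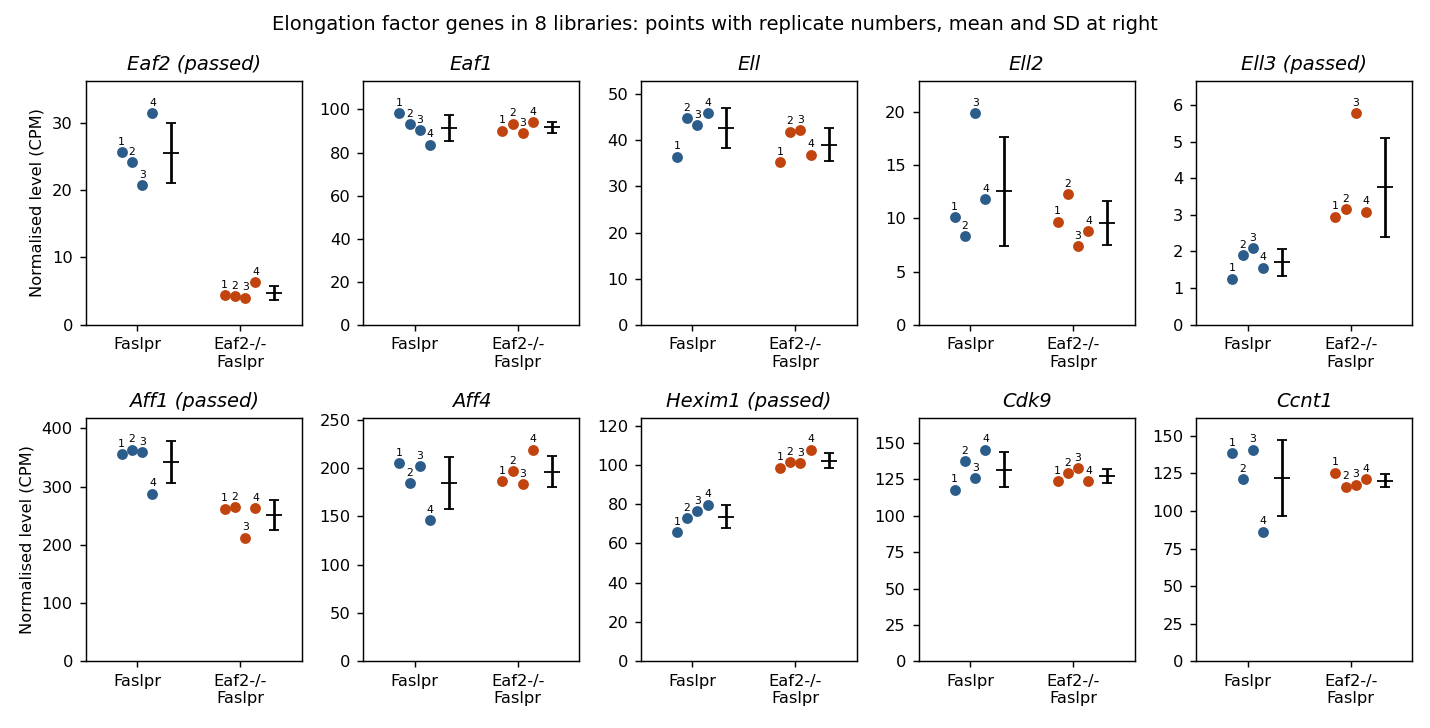
Normalised level of each of the 10 genes in CPM (y axes, from 0) in the 4 Faslpr and 4 EAF2Faslpr (Eaf2-/-Faslpr) libraries, with 1 numbered point per library and the group mean and SD at its right. The groups are separate for Eaf2, Ell3, Aff1 and Hexim1 and overlap for the other 6 genes.

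Eaf2, the gene removed in EAF2Faslpr mice, checks the labels. It measured 4.43, 4.20, 4.02 and 6.29 CPM in the 4 EAF2Faslpr libraries and 25.7, 24.2, 20.7 and 31.5 CPM in the 4 Faslpr libraries. Every EAF2Faslpr library lay far below every Faslpr library, and EAF2Faslpr 4 was the highest of its group. Means were 4.74 ± 1.05 and 25.5 ± 4.50 CPM (SD, n = 4 each). The gene fell by 2.43 on the log2 scale (SE 0.18, 95% interval -2.83 to -2.03, adjusted p = 2.9e-05 by edgeR's quasi-likelihood test), which left 18.5% of the Faslpr level. An exact two-sided permutation test of the CPM over libraries gave p = 0.0286, the smallest that 70 orderings allow. Transcript therefore remained detectable, with between 69.3 and 114 estimated reads per EAF2Faslpr library. Which exons these reads cover was not analysed here, so they do not show whether intact mRNA remained. Part of the Eaf2 span is shared with Iqcb1 on the opposite strand, a gene of the primary cilium, and the sources used here do not give the strand setting of the counting, so reads of the overlap are uncertain. Iqcb1 averaged 40.9 ± 2.58 CPM in EAF2Faslpr and 24.8 ± 2.57 CPM in Faslpr (n = 4 each), a log2 difference of 0.72 (SE 0.09, adjusted p = 0.000925), and it was looked at after its values were seen.

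The nearest tested genes beside Eaf2 on chromosome 16 also differed. Slc15a2, a peptide transporter gene, measured 9.19, 18.7, 51.5 and 13.9 CPM in EAF2Faslpr and 0.536 to 0.688 CPM in Faslpr. Its log2 fold change was 5.25 (SE 0.59, 38.2-fold, adjusted p = 0.000432), and 4.51 (22.7-fold, adjusted p = 3.48e-05) without EAF2Faslpr 3, the highest library. Across EAF2Faslpr libraries Slc15a2 had the order of the B cell sums (583, 627, 1059 and 591 CPM), but not across Faslpr libraries. The part of B cell RNA in the Slc15a2 difference was not tested. Golgb1, which encodes a tether protein of the Golgi, measured 81.5 ± 2.02 and 96.2 ± 3.11 CPM, a log2 fold change of -0.24 (SE 0.06, adjusted p = 0.0251). Its call was lost without EAF2Faslpr 1, 2 or 3 or without Faslpr 2, with adjusted p from 0.0621 to 0.0723.

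Eaf1, the paralogue of Eaf2, was not called. It measured 90.2, 93.4, 89.0 and 94.1 CPM in EAF2Faslpr and 98.5, 93.1, 90.4 and 83.6 CPM in Faslpr. The EAF2Faslpr values lay within the range of the Faslpr values. Means were 91.7 ± 2.45 and 91.4 ± 6.16 CPM, and the log2 fold change was 0.00 (SE 0.07, 95% interval -0.15 to 0.16, adjusted p = 0.9752). Compared per length, in TPM (the length-corrected share of transcripts) as deposited, the EAF total was 57.0 ± 3.82 in EAF2Faslpr and 89.5 ± 6.86 in Faslpr. The share of that total held by Eaf2 was 12.3% ± 2.44 and 44.2% ± 6.64, and the shares did not overlap between groups. In TPM, Eaf1 exceeded Eaf2 by 7.35 ± 1.501 fold in EAF2Faslpr and by 1.301 ± 0.337 fold in Faslpr.

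Among the ELL genes, Ell3 was the only one called. Ell3, an ELL paralogue known from testis and from enhancers of embryonic stem cells, measured 2.96, 3.17, 5.79 and 3.09 CPM in EAF2Faslpr and 1.26, 1.91, 2.09 and 1.56 CPM in Faslpr. All EAF2Faslpr libraries were above all Faslpr libraries, and EAF2Faslpr 3 stood well above its group. These levels rest on few reads, between 46 and 105 estimated reads in EAF2Faslpr and between 22.0 and 38 in Faslpr. Means were 3.75 ± 1.36 and 1.70 ± 0.369 CPM, a rise of 1.14 on the log2 scale (SE 0.28, 95% interval 0.51 to 1.76, 2.198-fold, adjusted p = 0.0251). The call was lost without EAF2Faslpr 3 (log2 fold change 0.85, adjusted p = 0.0570), without Faslpr 1 (adjusted p = 0.0702), without Faslpr 2 (adjusted p = 0.0563) and without Faslpr 4 (adjusted p = 0.0584).

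Ell3 moved largely with the B cell genes across the libraries. In EAF2Faslpr 1 to 4 the summed B cell level was 583, 627, 1059 and 591 CPM, and in Faslpr 1 to 4 it was 132, 187, 277 and 204 CPM. The library with the highest B cell sum in each group also had the highest Ell3 level in that group. Those libraries, EAF2Faslpr 3 and Faslpr 3, also had the highest macrophage and neutrophil sums of their groups, at 221 and 74.8 CPM. Faslpr 4 had a higher B cell sum than Faslpr 2 but less Ell3, at 1.56 against 1.91 CPM. Per 1000 CPM of B cell genes, Ell3 measured 5.07, 5.05, 5.46 and 5.23 CPM in EAF2Faslpr and 9.56, 10.2, 7.56 and 7.66 CPM in Faslpr. On this scale the EAF2Faslpr libraries were below the Faslpr libraries, the opposite order to that of Ell3 itself. That reversal follows from the larger difference of the B cell genes (median log2 fold change 2.13, against 1.14 for Ell3). It does not show the Ell3 level per B cell, as RNA from other cells was not separated. The most abundant B cell gene, Cd74, stood at a mean of 301 CPM in EAF2Faslpr and 103 CPM in Faslpr, and no B cell gene was at 0. The part of B cell RNA, or of macrophage and neutrophil RNA, in the Ell3 difference was not tested. Markers of germinal centre B cells did not move in this way, as 0 of the 4 tested were called and their sums were 43.7 to 53.2 CPM in EAF2Faslpr and 47.3 to 50.3 CPM in Faslpr, led by S1pr2 at means of 33.5 and 36.6 CPM.

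**Figure D3:**
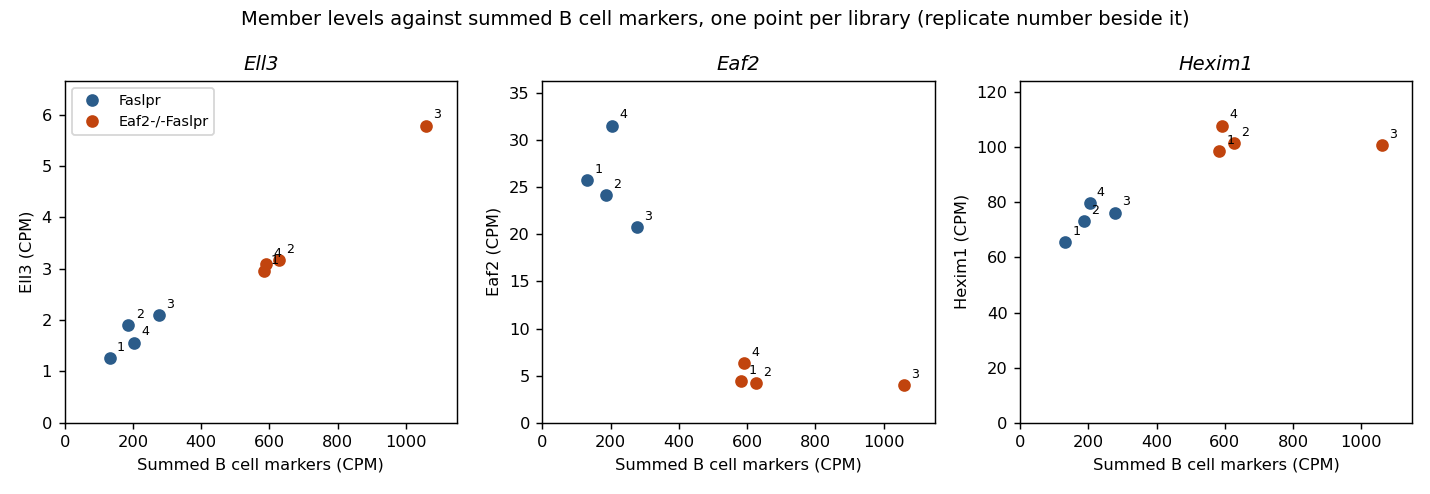
Ell3, Eaf2 and Hexim1 levels in CPM (y axes) against the summed CPM of the 12 listed B cell genes (x axis), with 1 numbered point per library and 4 libraries per group (EAF2Faslpr drawn as Eaf2-/-Faslpr). The EAF2Faslpr libraries have B cell sums of 583 to 1059 CPM and the Faslpr libraries 132 to 277 CPM, and EAF2Faslpr 3 is highest for both the B cell sum and Ell3.

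Ell and Ell2 were not called. Ell, the founding member of the ELL family, measured 35.3, 41.9, 42.2 and 36.9 CPM in EAF2Faslpr and 36.5, 44.9, 43.3 and 46.0 CPM in Faslpr, with overlapping ranges. Its log2 fold change was -0.13 (SE 0.10, 95% interval -0.34 to 0.09, adjusted p = 0.476). Ell2, the ELL protein of antibody-secreting cells, measured 9.70, 12.3, 7.39 and 8.83 CPM in EAF2Faslpr and 10.1, 8.34, 19.9 and 11.8 CPM in Faslpr. The groups overlapped and Faslpr 3 stood above all other libraries. The log2 fold change of Ell2 was -0.39 (SE 0.26, 95% interval -0.98 to 0.19, adjusted p = 0.401), an interval too wide to place the difference near 0. Without Faslpr 3 the value was -0.08 (adjusted p = 0.842). Beside it, 7 of 8 listed genes of antibody-secreting cells were tested and 1 was called, Xbp1, which was lower in EAF2Faslpr. Their summed level was 690 to 851 CPM in EAF2Faslpr and 860 to 981 CPM in Faslpr, led by Sdc1 at means of 365 and 439 CPM.

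In TPM the ELL total overlapped between the groups, at 40.6 ± 3.51 in EAF2Faslpr and 42.3 ± 5.67 in Faslpr. Ell supplied most of it in both, at a mean share of 72.2% and 75.9%. The share held by Ell3 was 12.8% ± 3.67 (10.2 to 18.2%) in EAF2Faslpr and 5.61% ± 0.756 (4.96 to 6.40%) in Faslpr, without overlap. The Ell2 share was 15.0% and 18.5%, with overlapping ranges.

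Of the AFF scaffold genes, Aff1 fell and Aff4 was not called. Aff1, a frequent fusion partner of the MLL gene in leukaemia, measured 262, 265, 213 and 263 CPM in EAF2Faslpr and 356, 364, 360 and 288 CPM in Faslpr. All EAF2Faslpr libraries were below all Faslpr libraries, but Faslpr 4 was well below the other 3 of its group and EAF2Faslpr 3 well below its own. Means were 251 ± 25.5 and 342 ± 36.1 CPM, a fall of 0.45 on the log2 scale (SE 0.10, 95% interval -0.67 to -0.22, 1.36-fold, adjusted p = 0.0163). The call was lost without Faslpr 2 (log2 fold change -0.41, adjusted p = 0.0563). At an effective length of 8.18 kb, Aff1 is in the longest class of genes, and the 2 libraries that stand apart from their groups are Faslpr 4 and EAF2Faslpr 3, which had the falling length trend. Fitting the trend as an offset per library, an alternative added after the data were seen, gave -0.46 (adjusted p = 0.00181), and leaving both libraries out gave -0.45 (adjusted p = 0.00314). The latter fit drops the outlying library of each group, at an SE of 0.055 against 0.10, so its smaller p adds no evidence about the trend. In TPM the highest EAF2Faslpr library was at 74.7 and the lowest Faslpr library at 74.8.

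Aff4, which encodes a central scaffold of the super elongation complex, measured 186, 197, 183 and 219 CPM in EAF2Faslpr and 205, 185, 202 and 146 CPM in Faslpr. The ranges overlapped, and Faslpr 4 was the lowest library. The log2 fold change was 0.09 (SE 0.11, 95% interval -0.16 to 0.33, adjusted p = 0.683), with the sign resting on Faslpr 4, since it was -0.0064 without that library. In TPM the sum of Aff1 and Aff4 was 116 ± 11.4 and 139 ± 21.8, with overlapping ranges. Aff1 held 60.2% ± 2.201 (58.0 to 62.5%) of it in EAF2Faslpr and 68.8% ± 1.51 (67.2 to 70.1%) in Faslpr, without overlap. Effective lengths were 8.18 kb for Aff1 and 9.72 kb for Aff4. In the libraries of falling length trend the Aff1 share was 58.0% in EAF2Faslpr 3, the lowest of its group, and 70.1% in Faslpr 4. The part of that trend in the shares was not tested. Aff3, a further AFF gene that is not among the 10, was at 57.2 ± 4.83 and 57.9 ± 7.76 TPM, above Aff4, and was not called (log2 fold change -0.0071, adjusted p = 0.969). With Aff3 included, the AFF sum was 173 ± 15.7 and 197 ± 29.2 TPM, and Aff1 held 40.3% ± 1.49 (38.5 to 41.9%) and 48.5% ± 1.40 (46.8 to 50.2%), again without overlap.

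Hexim1, whose product locks P-TEFb on the 7SK particle, rose. It measured 98.6, 101, 101 and 108 CPM in EAF2Faslpr and 65.6, 73.0, 76.3 and 79.8 CPM in Faslpr. The lowest EAF2Faslpr library was well above the highest Faslpr library. EAF2Faslpr 3, with the highest B cell sum, lay inside its group. In Faslpr, Faslpr 1 was lowest for both Hexim1 and the B cell sum, while Faslpr 4 was highest for Hexim1 and Faslpr 3 for the B cell sum. The part of B cell RNA in the Hexim1 difference was not tested. Means were 102 ± 3.96 and 73.7 ± 6.04 CPM, a log2 fold change of 0.47 (SE 0.07, 95% interval 0.31 to 0.64, 1.39-fold, adjusted p = 0.00272). Of the members other than Eaf2, only Hexim1 passed in all 20 alternative fits, with log2 fold changes from 0.42 to 0.52 and adjusted p up to 0.0135.

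The P-TEFb genes themselves were not called. Cdk9, the kinase subunit, measured 124, 129, 133 and 124 CPM in EAF2Faslpr and 118, 138, 126 and 145 CPM in Faslpr. The EAF2Faslpr range lay inside that of Faslpr. Its log2 fold change was -0.05 (SE 0.08, 95% interval -0.22 to 0.12, adjusted p = 0.761). Ccnt1, the main cyclin partner of CDK9, measured 125, 116, 117 and 121 CPM in EAF2Faslpr and 139, 121, 141 and 86.2 CPM in Faslpr. Faslpr 4 was far below the other 3 Faslpr libraries, which were all at or above the EAF2Faslpr 4 level. The log2 fold change was -0.02 (SE 0.13, 95% interval -0.32 to 0.28, adjusted p = 0.946), and -0.15 without Faslpr 4 (adjusted p = 0.204). The TPM ratio of Hexim1 to Cdk9 was 0.905 ± 0.0583 in EAF2Faslpr and 0.638 ± 0.0448 in Faslpr, without overlap. The ratio of Hexim1 to Ccnt1, at means of 1.73 and 1.297, overlapped between the groups.

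Compared per length, all the super elongation genes were measured in TPM and their order was similar in both groups. In Faslpr, Aff1 was highest at 95.6 ± 13.9 TPM, followed by Cdk9 at 78.4 ± 5.11, Hexim1 at 49.99 ± 3.48 and Eaf1 at 49.8 ± 5.24. Aff4 at 43.5 ± 8.17, Ccnt1 at 40.8 ± 10.1, Eaf2 at 39.7 ± 7.62 and Ell at 32.0 ± 2.81 came next. Ell2 at 7.98 ± 3.48 and Ell3 at 2.395 ± 0.576 were lowest. Of neighbours in this order, the library ranges were separate only for Cdk9 over Hexim1, Ell over Ell2 and Ell2 over Ell3. In EAF2Faslpr, Cdk9 led at 76.8 ± 1.69 TPM, with Aff1 at 69.9 ± 7.86 and Hexim1 at 69.5 ± 3.70, and Eaf2 dropped to 7.08 ± 1.89, next to Ell2 at 6.05 ± 1.31 and Ell3 at 5.24 ± 1.82. There, ranges were separate for Cdk9 over Aff1, Hexim1 over Eaf1, Ccnt1 over Ell and Ell over Eaf2. Among all genes tested, Eaf2 moved from percentile 60.6 in Faslpr to percentile 24.7 in EAF2Faslpr by TPM.

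**Figure D4:**
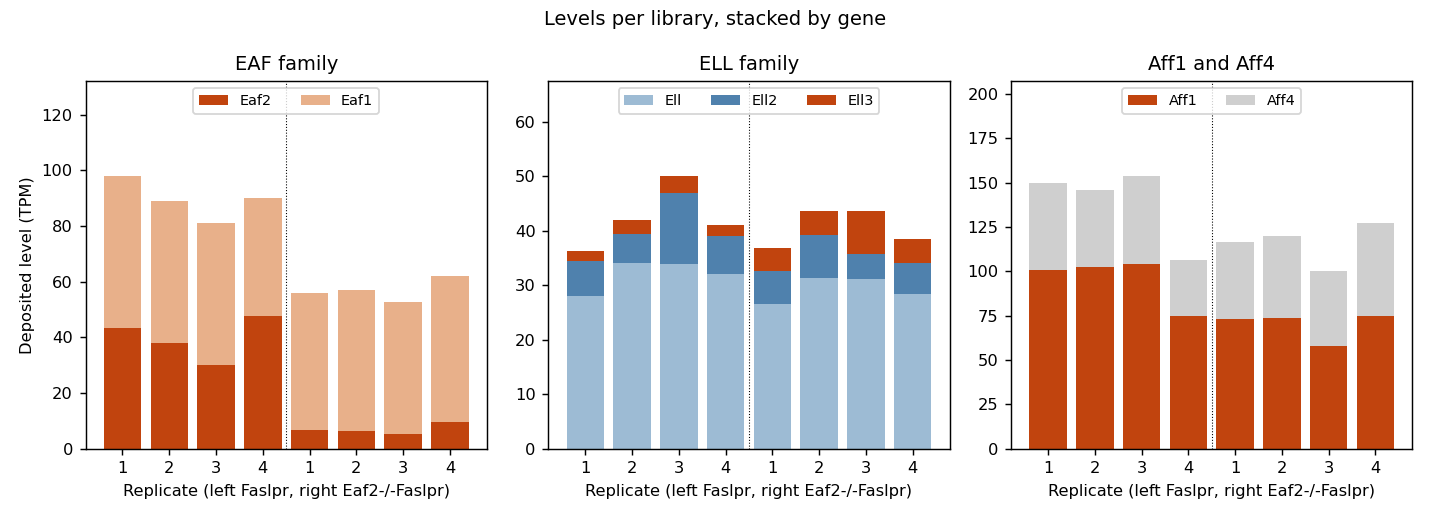
Levels in deposited TPM (y axis) of the EAF and ELL genes and of Aff1 and Aff4, stacked within each of the 8 libraries (x axis, Faslpr at left and EAF2Faslpr at right). The EAF total is 52.9 to 62.1 TPM in EAF2Faslpr and 81.1 to 97.9 TPM in Faslpr, while the ELL totals and the sums of Aff1 and Aff4 overlap.

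Few of the other genes that act on elongation were called. Of 75 listed symbols 73 were found in the table under those names and 71 were tested, while Aff2 and Tcea3 had at most 2 reads in any library. In EAF2Faslpr 1 was higher and 1 was lower, beside 12.1% of all genes tested that passed, and their median log2 fold change was -0.04. No gene was called among the 8 tested partners of the super elongation complex and MLL, the 6 subunits of DSIF and NELF, the 9 of PAF1, SPT6 and FACT, the 7 of TFIIS and elongin, the 12 of the little elongation complex and Integrator, the 6 CDK7, CDK12 and CDK13 genes, and the 13 RNA polymerase II subunits. At an unadjusted p under 0.05 there were 7 genes among the 71. The share of all genes at that level was not worked out, but it is at least the 12.1% that passed after adjustment. DESeq2 called 4 of the 71, beside 1898 of all genes. The RNA polymerase II subunits, none of them called, had the lowest median log2 fold change of these lists, at -0.11. Their summed level was 762 to 854 CPM in EAF2Faslpr and 864 to 915 CPM in Faslpr, without overlap. The sums of each other elongation list overlapped between the groups. Both calls of the main test were among the 10 tested regulators of P-TEFb. Brd2, a bromodomain reader of acetylated histones, measured 432, 450, 442 and 488 CPM in EAF2Faslpr and 391, 377, 399 and 383 CPM in Faslpr. The log2 fold change was 0.23 (SE 0.06, adjusted p = 0.0442), and no call remained when any single library was left out, with adjusted p from 0.0541 to 0.133.

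Hexim2, the paralogue of Hexim1, lies beside Hexim1 on chromosome 11 with no gene of the reference table between them. It measured 8.16, 6.39, 7.39 and 6.62 CPM in EAF2Faslpr and 10.03, 10.96, 11.1 and 9.52 CPM in Faslpr, without overlap, and it fell by 0.54 on the log2 scale (SE 0.13, adjusted p = 0.0198). This call was lost without EAF2Faslpr 2 or 4 or without Faslpr 2, with adjusted p from 0.0598 to 0.0637. The pair of HEXIM genes thus had opposite log2 fold changes by count. Per length the Hexim2 difference was not seen, since TPM were 3.44 ± 0.700 and 3.49 ± 0.490 and limma-trend on log2(TPM + 1) gave -0.02 (adjusted p = 0.946). The effective length of Hexim2, which RSEM takes over the isoforms it estimates, was 4.81 ± 0.556 kb in EAF2Faslpr and 6.82 ± 0.317 kb in Faslpr, without overlap. For all 10 members, effective lengths overlapped between the groups.

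**Figure D5:**
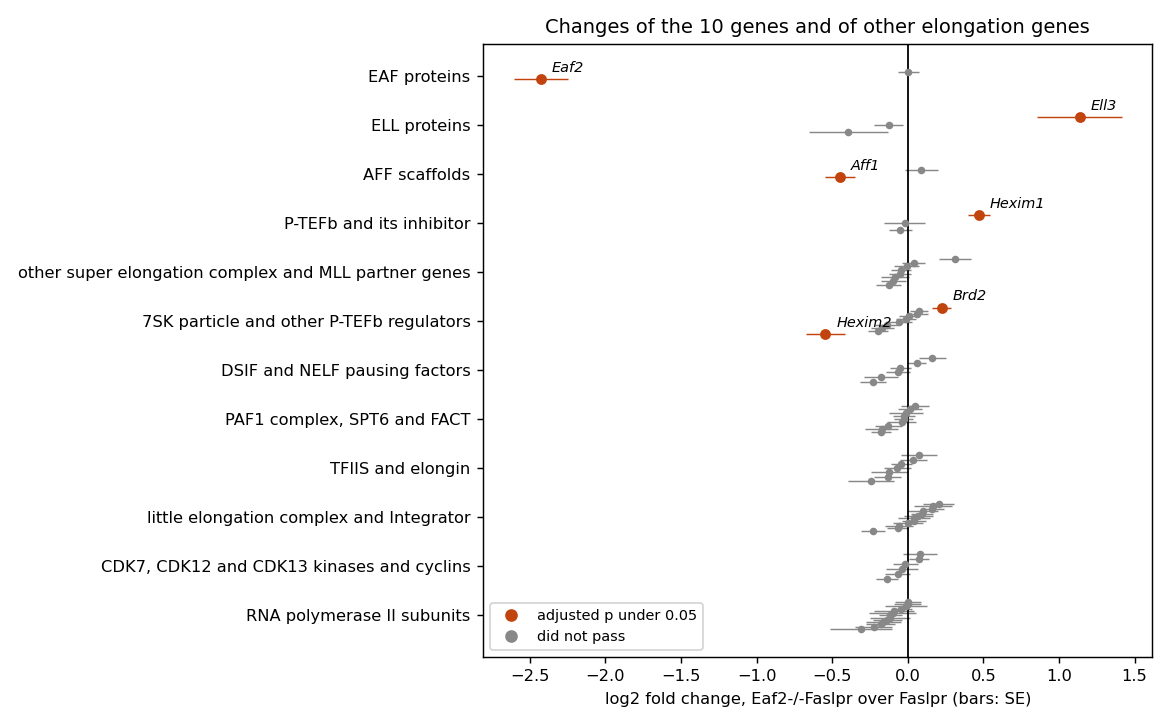
Log2 fold change, EAF2Faslpr over Faslpr, (x axis) for the 10 members and the other elongation genes by list (y axis), with bars of 1 SE and coloured points for an adjusted p under 0.05. Eaf2 and Aff1 lie left of 0, Ell3 and Hexim1 right of it, and the medians of the other lists lie between -0.11 and 0.06.

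Genes known to be released from pausing on stimulation included 6 that were higher. Of 10 listed genes 9 were tested, 6 passed as higher in EAF2Faslpr (Fos, Jun, Junb, Ier2, Nfkbia and Dusp1) and none was lower, beside 7.14% of all genes called higher and 4.96% called lower. The median log2 fold change of the 9 was 1.59, beside -0.01 over all genes. This list was drawn up with earlier results of these data known and is not independent evidence of its direction. Dusp1, a phosphatase of MAP kinases, was 9.67-fold higher, and Junb, an AP-1 subunit, was 3.02-fold higher. Jun was 62.7-fold higher, at 173 ± 113 CPM in EAF2Faslpr and 2.74 ± 0.608 CPM in Faslpr, and 43.6-fold higher without EAF2Faslpr 4. Myc (log2 fold change -0.17, adjusted p = 0.370) and Egr1 (-0.02, adjusted p = 0.951), both known for regulated elongation, were not called. Ier2, at a log2 fold change of 0.51 (adjusted p = 0.0306), lost its call without EAF2Faslpr 3 or 4 or without Faslpr 1, 2 or 3, with adjusted p from 0.0663 to 0.0923. How these genes relate to the members was not tested.

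Finally, the genes whose levels across the 8 libraries were most like Eaf2 were found among 9926 genes of at least 5 CPM, as a description with no p, since all points share the libraries and the genotype. Pearson correlations of log2(CPM + 1) were 0.992 for Pdk2, a pyruvate dehydrogenase kinase, 0.990 for Rpl21, a ribosomal protein gene, and 0.989 for Mtss1, an actin-binding scaffold. Gm10029 at 0.984 and Lrrc23 at 0.981 followed. After group means were removed, the correlations over the same libraries were 0.740, 0.650, 0.667, 0.322 and 0.664 in that order. The value of Rpl21 is uncertain, since ribosomal protein genes have near-identical pseudogene copies between which reads can be split.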

How the data were processed

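Per the submitters' processing notes, HISAT2 2.2.1, Bowtie2 2.4.5 and RSEM 1.3.1 were used on GRCm39, with no role or order given. The sources used here give neither the annotation nor the strand setting. The deposited values used were the authors' estimated counts from RSEM, of which 36.8% were whole within 0.001, their TPM, used for levels between genes, and their FPKM, used only to derive effective lengths. A further 8 per-sample columns of normalised counts were not used.

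Estimated counts were rounded, filtered with filterByExpr, scaled by TMM and tested over all 8 libraries with edgeR's quasi-likelihood test (edgeR 4.0.16, R 4.3.3), without covariates. P-values were adjusted by Benjamini-Hochberg over the 12340 genes tested. CPM are counts per M reads after TMM scaling, intervals use the fit's degrees of freedom, and values are mean ± SD (n = 4). Counting floors cover counting error only.

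Between replicates of a group, chi-square per degree of freedom was 8.97 to 35.1, above sampling noise. The test was tried on simulated data. Alternatives were RLE, upper quartile and library size scaling, no filter, DESeq2 1.42.0, limma-voom and limma-trend (limma 3.58.1) with pseudocounts of 1 and 0.1 TPM, a replicate block, and fits leaving out libraries. A length offset, and leaving out the 2 libraries whose length trend falls (Faslpr 4 and EAF2Faslpr 3), were added after the data were seen.

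The members and lists were chosen with earlier results of these data known. Named genes were the 10 members, up to 3 called genes per elongation or target list by smallest p, the 5 genes most like Eaf2, its nearest tested neighbours and the most abundant gene of each cell type list. The other called target genes, Aff3, Aff2, Tcea3, Cd2, Lyz2, Cybb, Ly6g, Xbp1, Iqcb1, Myc, Egr1, Mllt6 and Mepce were named after their values were seen. Promoter windows were matched by symbol for all 10 members.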

Additional observations from a re-analysis of the deposited data

Results flagged for a closer look

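Among 24 groups of 4 libraries checked, 3 values stood far from the other 3 libraries of their group, where chance alone gives about 1 in 20 groups. Ell3 was at 5.79 CPM in EAF2Faslpr 3, with a gap to the nearest library of 0.925 of the group's range, above the limit for 4 libraries. Aff1 was at 213 CPM in EAF2Faslpr 3, with a gap of 0.944 of the range. Aff1 was at 288 CPM in Faslpr 4, with a gap of 0.893 of the range. EAF2Faslpr 3 had the highest summed B cell and macrophage and neutrophil levels of all libraries, at 1059 and 221 CPM, and both libraries had the falling length trend described above. The part of these in the 3 values was not tested.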

How the results depend on the processing

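Of the members called, Eaf2 and Hexim1 passed in all 20 alternatives, Aff1 in 19 and Ell3 in 14. Leaving out 1 library at a time gave 2 to 4 members called, with 2 without Faslpr 2, and 990 to 1599 genes called, with 990 also without Faslpr 2, against 1493 with all libraries. In those fits Ell3 ranged from 0.85 to 1.25 and Aff1 from -0.52 to -0.38 on the log2 scale. Ell3 was 1.18 (adjusted p = 0.0810) without both replicates numbered 4 and 0.80 (adjusted p = 0.0940) without both libraries of falling length trend. The cause was not tested.

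Members near 0 changed sign. Eaf1 was -0.0085 with no filter, -0.048 without both replicates numbered 4, -0.023 without both libraries of falling length trend, and -0.034 to 0.041 leaving out 1 library. Ccnt1 was 0.0054 by limma-voom, 0.012 and 0.013 by limma-trend with pseudocounts of 1 and 0.1, and -0.15 to 0.056 leaving out 1 library. Without both replicates numbered 4, Aff4 was -0.065 and Cdk9 0.016, and leaving out 1 library gave -0.0064 to 0.14 and -0.099 to 0.0033.

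The count of 2 elongation genes called outside the set became 1 with no filter, 4 by DESeq2 (with Mllt6 and Mepce), 0 by limma-trend with either pseudocount, 0 without both replicates numbered 4, 1 without both libraries of falling length trend, and 0 to 3 leaving out 1 library. Of the 9 tested genes released from pausing, 5 to 7 were called in all alternatives, with no filter testing 10. Brd2 lost its call in 14 of 20 alternatives and Hexim2 in 6.

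Deviations from group means could not decide whether same-numbered libraries were paired, as their correlations were mixed, at 0.18, 0.18, 0.05 and -0.07 for replicates 1 to 4. Replicates 1 and 2 correlated best with their own number. EAF2Faslpr 3 correlated best with Faslpr 4, at 0.19, and both had the falling length trend. With the replicate number as a block, 1425 genes and the same 4 members were called, and Ccnt1 was 0.0037. The block lowered the SE of Eaf2 (0.18 to 0.11) and Ell3 (0.28 to 0.22). It raised that of Ell2 (0.26 to 0.29) and Aff4 (0.11 to 0.13). Scaling moved the median of all genes by under 0.03. Ell3 had the lowest mean CPM of the members in each group, and Ell2 varied widely in Faslpr (12.5 ± 5.11 CPM). Effects smaller than their intervals were not detectable with these libraries.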

Other observations

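Among the 10 members, Eaf2 had the widest range of effective length relative to its mean, from 1.38 to 1.68 kb. The range overlapped between the groups, at 1.54 ± 0.0922 kb in EAF2Faslpr and 1.47 ± 0.119 kb in Faslpr (SD, n = 4 each).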
